A study of Mus musculus with 9 samples.

Results

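MHC class II transcripts were examined in regulatory T cells (Tregs) from mouse tumours through 7 genes chosen by symbol: H2-Aa, H2-Ab1, H2-Eb1, Cd74, H2-DMa, H2-DMb1 and Ciita. All 7 were present among the 16409 genes of the normalized expression table, and all 7 were among the 12555 genes that passed a filter on low values. The cells were sorted as CD4+ GFP+ from tumours of Lewis lung carcinoma (LLC), a mouse lung carcinoma line, in wild-type C57BL/6 mice, and RNA was sequenced from 9 pools of 3 to 4 mice. In 3 pools, anti-β8, the tumours expressed the integrin subunit β8 and the mice received the anti-β8 antibody C6D4 at 7 mg/kg into the peritoneum, 2 times a week from day 7. In 3 further pools, β8 isotype, the tumours expressed β8 and the mice received an isotype control antibody. In the last 3 pools, Mock, the LLC cells were mock transfected and the mice are labelled untreated, so tumour β8 and antibody injection cannot be told apart in comparisons with Mock. Tumours were taken on day 14. The labels do not describe the reporter behind GFP, the purity of the sort or the numbers of cells.

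MHC class II molecules present peptides from internalised proteins to CD4+ T cells. An α and a β chain pair in the endoplasmic reticulum with the invariant chain Cd74, which is then cut down by lysosomal proteases to a fragment that H2-DM exchanges for peptide. Transcription depends on Ciita, a co-activator that interferon-γ induces in many cell types and that docks on the factors bound at class II promoters. In mice, dendritic cells, macrophages and B cells are the professional class II-positive cells. Resting mouse T cells are generally considered to make little class II, and T cells can also acquire class II protein from other cells. In bulk samples such as these, fewer cells of a type and less RNA per cell cannot be told apart.

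The promoter arrangement that gives these genes their shared regulation could be read directly for H2-Aa and H2-Eb1, and both stretches are shown because the H2 genes are described together below. A search of RefSeq promoter windows of 300 bases (GRCm38.p6, 250 before to 50 after each start, both strands) looked for CTNGNAAC, resembling the X box, followed after 20 to 30 bases by GATTGG, the Y box. The first pattern was written to match letters seen in class II windows, so its presence in them is a description. Capitals mark both patterns. The H2-Aa stretch is chr17:34287847-34287927 on the minus strand, with 27 bases between the patterns. The H2-Eb1 stretch is chr17:34305753-34305832 on the plus strand, with 26 bases between them.
H2-Aa: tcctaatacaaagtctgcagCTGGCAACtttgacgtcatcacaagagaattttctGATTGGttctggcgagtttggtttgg
H2-Eb1: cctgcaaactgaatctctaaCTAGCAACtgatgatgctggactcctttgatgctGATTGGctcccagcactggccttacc
The spaced pair occurred in 17 of 32851 windows (0.0517%), and 4 of these belonged to class II genes: H2-Aa, H2-Eb1, H2-DMb1 and H2-Ob. These were 4 of the 8 class II genes with a window, and H2-DMa, H2-DMb2, H2-Oa and H2-Eb2 held no such pair. Alone, CTNGNAAC occurred in 13.2% of windows and GATTGG in 16.1%.

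The H2 members lie in the MHC on chromosome 17 (GRCm38, GENCODE M21): H2-DMa at 34119541 to 34139101, H2-DMb1 at 34153072 to 34160230, H2-Ab1 at 34257689 to 34269419, H2-Aa at 34282744 to 34287823 on the minus strand and H2-Eb1 at 34305867 to 34316674. Ciita lies on chromosome 16 at 10480059 to 10528418, and Cd74 on chromosome 18. Levels are given as FPKM (fragments per kilobase and per library size) from the table that the authors did not normalize between libraries. Differences are given as log2(FPKM + 1) of the normalized table.

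Class II transcripts were abundant in all 9 pools. Ranked by FPKM within a library, Cd74 stood between 13 and 61 from the top, H2-Ab1 between 56 and 203, H2-Aa between 145 and 424 and H2-Eb1 between 164 and 398. H2-DMa ranked 561 to 2204 and H2-DMb1 1074 to 2473, whereas Ciita ranked 9744 to 12831. The 7 members together made up 0.424% to 0.838% of the summed FPKM. Cd74 exceeded the T cell receptor component Cd3e in 9 of 9 pools and H2-Ab1 exceeded it in 6 of 9. The markers of the labelled cell type were present in every pool, with Foxp3, the transcription factor that defines Tregs, at 73.98 to 135 FPKM and Cd3e at 602 to 828 FPKM.

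Among the peptide-binding chains, H2-Ab1, the β chain of I-A, was the most abundant and exceeded H2-Aa and H2-Eb1 in 9 of 9 pools. It had 1022, 1009 and 833 FPKM in anti-β8 pools 1 to 3, against 1139, 607 and 696 FPKM in β8 isotype pools 1 to 3 and 1093, 630.4 and 704 FPKM in Mock pools 1 to 3. In β8 isotype and in Mock pool 1 stood well above the other 2 pools, and the anti-β8 pools lay between those levels, so the groups overlapped. H2-Aa, the α chain of I-A, had 673, 785 and 518 FPKM in anti-β8, 658, 309 and 354 FPKM in β8 isotype and 577, 374 and 418 FPKM in Mock. Its highest value was in anti-β8 pool 2 and its lowest in β8 isotype pool 2. H2-Aa exceeded H2-Eb1 in 6 of 9 pools, so their order was not settled by these libraries.

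H2-Eb1, the β chain of I-E, had 549.7, 364 and 372 FPKM in anti-β8, 612, 334 and 371 FPKM in β8 isotype and 612, 337 and 385 FPKM in Mock. In each group pool 1 stood above the other 2 pools, and these pairs of lower pools lay within 334 to 385 FPKM in every group. C57BL/6 mice lack a functional I-E α chain, and H2-Ea-ps, its pseudogene, did not exceed 0.271 FPKM in any pool. The related β chain gene H2-Eb2 did not exceed 0.478 FPKM.

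H2-Eb1 kept a near-fixed proportion to H2-Ab1 outside anti-β8 pools 2 and 3, and the proportion of H2-Aa varied more. H2-Eb1 was 0.533 to 0.560 times H2-Ab1 in the 6 β8 isotype and Mock pools, and 0.538, 0.360 and 0.447 times in anti-β8 pools 1 to 3. H2-Aa was 0.622 to 0.778 times H2-Ab1 in the anti-β8 pools, 0.508 to 0.578 times in the β8 isotype pools and 0.528 to 0.594 times in the Mock pools. Anti-β8 pools 2 and 3, the pools that departed from the other H2-Eb1 proportions, were also the libraries with the fewest genes at 1 FPKM or more, 9772 and 9283 against 11785 to 12177 in the other 7. The H2-Aa proportion was above those of the other groups in anti-β8 pool 1 too, at 0.659, in a library with 11785 such genes. The part of the lower gene detection in the changed proportions was not tested.

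Cd74, the invariant chain, was the most abundant member in 9 of 9 pools. It had 2745, 2370.1 and 2402 FPKM in anti-β8, 2511, 1751 and 2004 FPKM in β8 isotype and 2287, 1427 and 1561 FPKM in Mock. The lowest anti-β8 pool, at 2370.1 FPKM, lay above all 3 Mock pools but below pool 1 of β8 isotype. In normalized FPKM, the scale of the tests, that anti-β8 pool had 2151 and Mock pool 1 had 2244, so there the anti-β8 and Mock pools overlapped. Cd74 was 2.35 to 2.88 times H2-Ab1 in anti-β8, 2.21 to 2.89 times in β8 isotype and 2.09 to 2.26 times in Mock.

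H2-DMa and H2-DMb1 encode the chains of H2-DM, the peptide exchanger, and both were lower than the peptide-binding chains in 9 of 9 pools. H2-DMa had 99.7, 119 and 214 FPKM in anti-β8, 128, 74.9 and 82.3 FPKM in β8 isotype and 102, 63.7 and 45.6 FPKM in Mock. H2-DMb1 had 88.7, 90.4 and 45.2 FPKM in anti-β8, 106, 58.2 and 42.1 FPKM in β8 isotype and 62.4, 44.3 and 58.2 FPKM in Mock. Anti-β8 pool 3 held the highest H2-DMa value of all 9 pools with a low H2-DMb1 value, a ratio of 4.72, where the other 8 pools ranged from 0.784 to 1.96. H2-DMb1 and its neighbour H2-DMb2, at 17.5 to 59.7 FPKM, are near-identical and can share reads, so the division of reads between them is uncertain.

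Ciita, the co-activator of all these genes, was low in every group. It was listed at 2.34, 0 and 0 FPKM in anti-β8 pools 1 to 3, at 2.30, 1.13 and 1.36 FPKM in β8 isotype and at 1.79, 0.626 and 0.669 FPKM in Mock. Anti-β8 pools 2 and 3, where Ciita was listed at 0, held 1009 and 833 FPKM of H2-Ab1. These were also the libraries with the fewest genes at 1 FPKM or more, 9772 and 9283, so a listed 0 does not show that Ciita was absent. By a rough estimate that takes the longest transcript, Ciita reached at most about 134 fragments, in β8 isotype pool 1. The lowest estimate for H2-DMb1 was about 570.4 fragments, in anti-β8 pool 3. The size of 1 fragment was sought only between 0.05 and 0.15 FPKM times kilobases, so these counts depend on that preset window. The normalized table lifts the Ciita zeros of anti-β8 pools 2 and 3 to 0.0520 and 0.0936 FPKM, and the Ciita differences below rest on those substituted values.

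**Figure D1:**
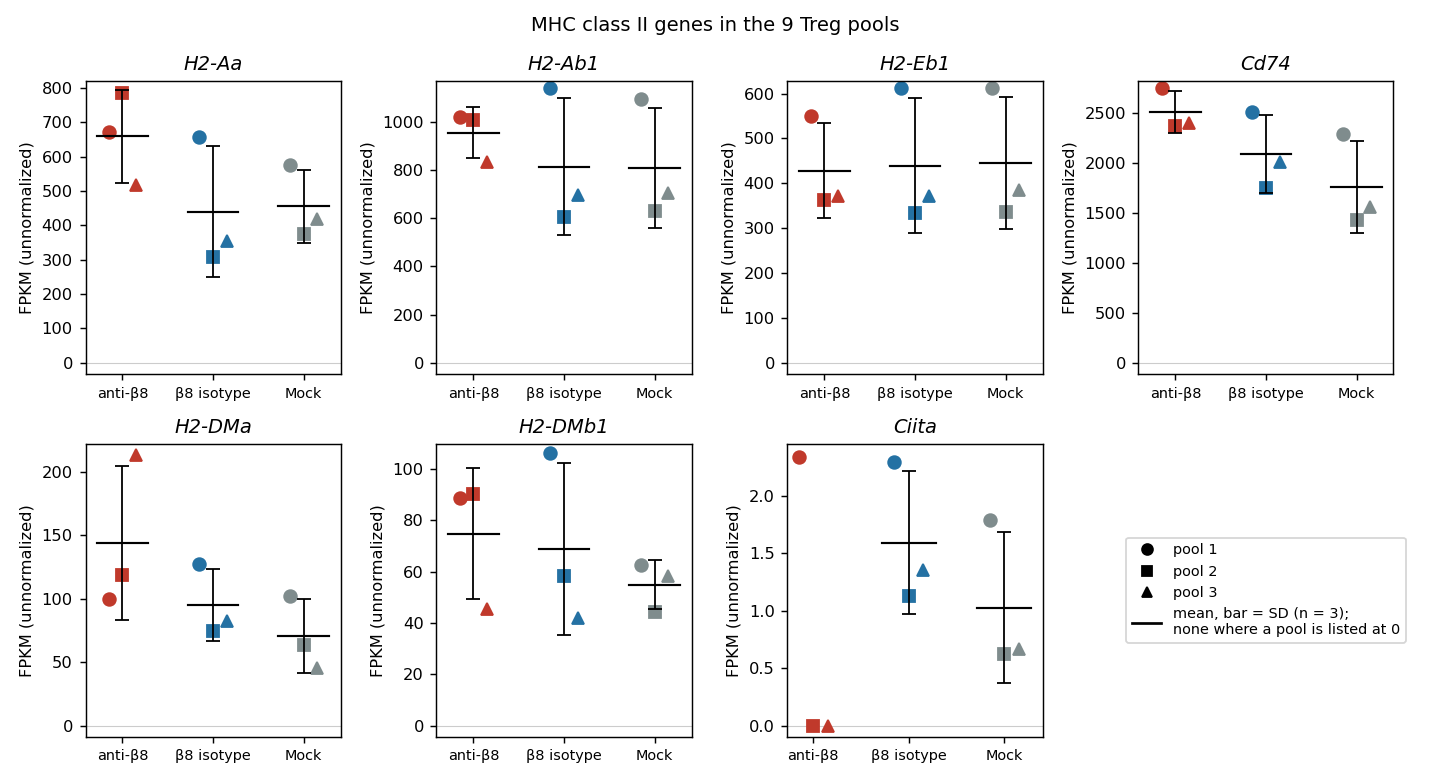
Level of each MHC class II gene in every pool, in unnormalized FPKM on the vertical axis with its own scale per gene, for anti-β8, β8 isotype and Mock; marker shapes give the pool number, and lines with bars give the mean and SD of 3 pools, left out for Ciita in anti-β8 because 2 pools are listed at 0. Pool 1 lies highest in β8 isotype and Mock for every gene, while the anti-β8 pools of H2-Ab1 lie between 833 and 1022 FPKM.

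The comparison of anti-β8 with β8 isotype asks how the anti-β8 antibody, against an isotype antibody, went with class II transcripts in Tregs of β8 tumours. It cannot tell β8 of the tumour from β8 of host cells as the target. No member passed the threshold (limma, Benjamini-Hochberg adjusted p of 0.05 over 12555 genes), against 8 genes or 0.0637% of all genes tested. At an unadjusted p under 0.05 the count was also 0 of 7, against 10.2% of all genes in either direction and 3.97% in the higher one. No member had non-overlapping pools, against 15% of all genes. The median log2 difference of the 7 members was 0.15, with 5 of 7 above 0, where the median of all genes was -0.036 and 47.1% of genes lay above 0.

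The interval of each difference shows what these pools could resolve. For H2-Aa the log2 difference between anti-β8 and β8 isotype was 0.52 ± 0.30 (SE, n = 3 pools per group), with a 95% interval of -0.14 to 1.18 (limma adjusted p = 0.555). For Cd74 it was 0.22 ± 0.20, with an interval of -0.22 to 0.66 (limma adjusted p = 0.710). H2-DMa gave 0.54 ± 0.36, H2-Ab1 0.15 ± 0.29, H2-DMb1 0.12 ± 0.37, H2-Eb1 -0.089 ± 0.30 and Ciita -0.54 ± 0.49, and the intervals of these 5 genes also held 0. A change of 1 log2 unit in either direction lay outside the interval for H2-Ab1, H2-Eb1, H2-DMb1 and Cd74. A rise of 1 log2 unit lay inside the interval for H2-Aa and H2-DMa, and a fall of 1 inside that for Ciita. The opposite change lay outside the interval for each of these genes.

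The comparison of β8 isotype with Mock asks how β8 on the tumour, together with the isotype antibody, went with class II transcripts. No member passed the threshold in limma, against 1 gene or 0.00796% of all genes tested. None had an unadjusted p under 0.05, against 5.57% of all genes in either direction and 2.99% in the higher one, and none had non-overlapping pools, against 17.5%. The median log2 difference of the members was 0.21 and that of all genes 0.0087, with 6 of 7 members above 0 against 50.8% of all genes. Cd74 had the smallest p, with a log2 difference of 0.37 ± 0.20 and a 95% interval of -0.066 to 0.81 (limma adjusted p = 0.978). H2-Aa, H2-Ab1 and H2-Eb1 differed by -0.017 ± 0.30, 0.14 ± 0.29 and 0.058 ± 0.30 log2 units. On the unnormalized table H2-Ab1 gave -0.0041 and H2-Eb1 -0.021, so no direction can be given for these chains.

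The comparison of anti-β8 with Mock joins tumour β8 and the blocking antibody on one side. No member passed the threshold in limma, against 23 genes or 0.183% of all genes tested. At an unadjusted p under 0.05, 2 of 7 members were counted, both higher in anti-β8, against 14% of all genes in either direction and 6.09% in the higher direction. Cd74 averaged 2506 ± 208 FPKM in anti-β8 and 1759 ± 463 FPKM in Mock (SD, n = 3 pools each), a log2 difference of 0.59 ± 0.20 (limma adjusted p = 0.258). H2-DMa averaged 144 ± 61.0 FPKM in anti-β8 and 70.6 ± 29.1 FPKM in Mock, a log2 difference of 0.98 ± 0.36 (limma adjusted p = 0.286). In normalized FPKM the pools of both genes overlapped, as did those of the other 5 members, against 16.3% of all genes without overlap. The median log2 difference was 0.33 for the members and -0.025 for all genes, with 5 of 7 members above 0 against 48.3% of all genes. Between the same groups the summed B cell markers were 121 to 205 FPKM in anti-β8 and 24.7 to 62.6 FPKM in Mock without overlap, and the CD8 and natural killer cell and the fibroblast markers also had non-overlapping sums, given below. The macrophage genes C1qa and C1qc, which encode chains of complement C1q, were higher in all 3 anti-β8 pools than in every Mock pool, with log2 differences of 1.67 ± 0.54 and 1.87 ± 0.53 (limma adjusted p = 0.248 and 0.196). Cd8a did likewise, at 2.63 ± 0.66 (limma adjusted p = 0.149). The part of these markers in the Cd74 and H2-DMa values was not tested.

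**Figure D2:**
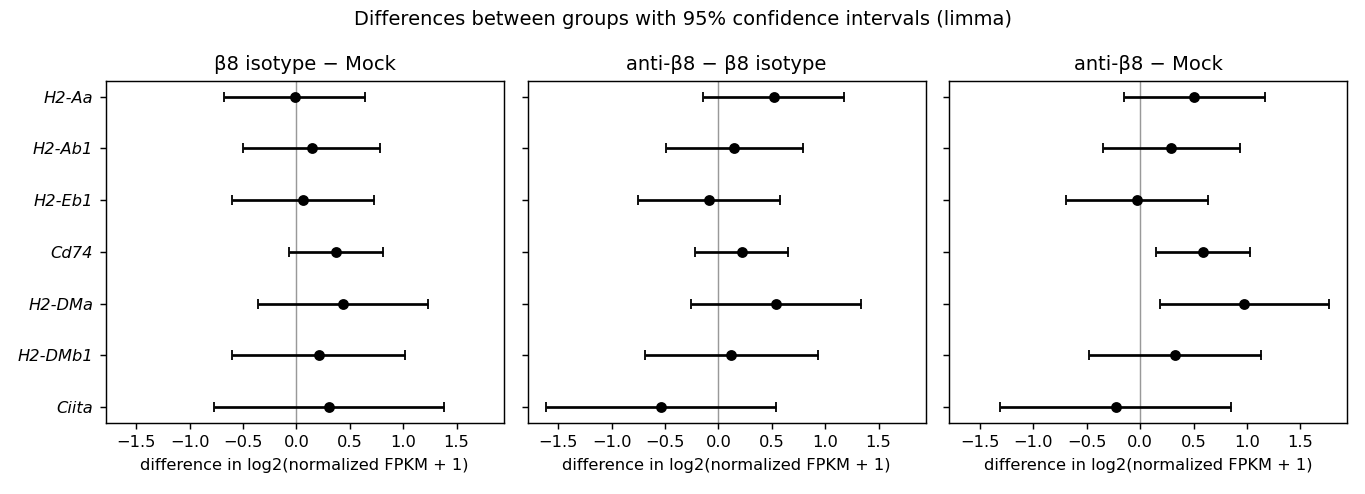
Difference of each MHC class II gene in log2(normalized FPKM + 1) for β8 isotype minus Mock, anti-β8 minus β8 isotype and anti-β8 minus Mock; points are estimates and bars their 95% confidence intervals from limma, with 0 marked by a line. The intervals hold 0 for every gene except Cd74 (0.59) and H2-DMa (0.98) in anti-β8 minus Mock, and neither passed after adjustment over all genes.

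The rest of the class II pathway was followed through a list of 25 symbols, of which 22 were in the table and 18 passed the filter (the other 3 were alternative spellings or the α chain that C57BL/6 lacks). In limma, 0 of 18 passed the threshold in any comparison. At an unadjusted p under 0.05, 1 of 18 was counted for anti-β8 against β8 isotype, 2 for anti-β8 against Mock and 0 for β8 isotype against Mock, where the shares of all genes were 10.2%, 14% and 5.57%. The shares of the list lie below these. The gene counted in both was Ctss, cathepsin S, a protease that trims the invariant chain in antigen-presenting cells. Ctss averaged 215 ± 48.4 normalized FPKM in anti-β8, 416 ± 79.8 in β8 isotype and 327 ± 40.2 in Mock (SD, n = 3 pools each). All 3 anti-β8 pools lay below every pool of each other group. The log2 difference was -0.96 ± 0.19 against β8 isotype (limma adjusted p = 0.222) and -0.62 ± 0.19 against Mock (limma adjusted p = 0.225). Ctss is also on the macrophage and monocyte list used below. Ctsd, the lysosomal protease cathepsin D, averaged 137 ± 21.1 normalized FPKM in anti-β8 and 88.2 ± 16.9 in Mock, a log2 difference of 0.64 ± 0.21 (limma adjusted p = 0.254).

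The genes of smallest p behind these were Lgmn, Ctsb, Creb1, Ctsh, Rfxank and Lag3, with limma adjusted p-values of 0.419 to 0.992. Lgmn, an asparaginyl endopeptidase of the endolysosome, differed by 0.62 ± 0.32 log2 units and Ctsb, cathepsin B, by 0.28 ± 0.19 between anti-β8 and Mock. Creb1, a factor that takes part in the class II promoter complex, differed by -0.80 ± 0.40, Ctsh, cathepsin H, by 0.56 ± 0.32 and Rfxank, a subunit of the RFX complex that binds the X box, by 0.52 ± 0.36 between anti-β8 and β8 isotype. Between β8 isotype and Mock, Ctsh differed by -0.60 ± 0.32, Ctsd by 0.41 ± 0.21, Ctss by 0.34 ± 0.19 and Lag3, an inhibitory receptor for class II, by 0.80 ± 0.45. H2-Oa and H2-Ob, whose product H2-O inhibits H2-DM and is typical of B cells, ranged from 6.54 to 44.3 FPKM and from 0.115 to 22.5 FPKM over the 9 pools.

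Genes of the interferon-γ route that induces Ciita were read from a list of 8, all tested. In limma 0 of 8 passed in any comparison, against 0.00796% to 0.183% of all genes. At an unadjusted p under 0.05, 3 of 8 were counted for β8 isotype against Mock, all higher (5.57% of all genes). For anti-β8, 3 of 8 were counted against β8 isotype and 1 of 8 against Mock, all lower (10.2% and 14% of all genes). Non-overlapping pools were found for 1, 3 and 1 of 8 in these comparisons, against 17.5%, 15% and 16.3% of all genes. Irf1, an interferon-induced transcription factor of the Ciita promoter, differed by 0.74 ± 0.23 between β8 isotype and Mock (limma adjusted p = 0.567). Between the same groups Ifngr1, a chain of the interferon-γ receptor, differed by 0.46 ± 0.17 (limma adjusted p = 0.738). Socs1, an inhibitor of the pathway, differed there by 0.32 ± 0.19 (limma adjusted p = 0.9995). Between anti-β8 and β8 isotype, Ifngr1 differed by -0.83 ± 0.17 and Socs1 by -0.78 ± 0.19, with limma adjusted p-values of 0.300 and 0.351. Ifng itself differed by -1.62 ± 0.80 in that comparison (limma adjusted p = 0.509). Between anti-β8 and Mock the differences of Socs1, Ifngr1 and Irf1 were -0.47 ± 0.19, -0.37 ± 0.17 and 0.34 ± 0.23 (limma adjusted p-values of 0.321 to 0.531). H2-Aa, H2-Ab1 and H2-Eb1 differed by 0.52, 0.15 and -0.089 log2 units between anti-β8 and β8 isotype.

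Markers of antigen-presenting cells were present in every pool at levels that differed widely between cell types. The 17 macrophage and monocyte markers summed to 1000.3 to 1622 FPKM in anti-β8, 766 to 1802 FPKM in β8 isotype and 972 to 1547 FPKM in Mock, with 11 to 16, 15 to 16 and 14 to 15 of 17 at 1 FPKM or more in those groups. The 4 highest were Lyz2, lysozyme, at 136 to 549.6 FPKM, Ctss at 188 to 475 FPKM, Tyrobp, a signalling adaptor of myeloid and natural killer cells, at 102 to 367 FPKM and Fcer1g, an Fc receptor chain, at 90.3 to 267 FPKM. Several macrophage-restricted genes were far lower: Adgre1, which encodes F4/80, was at 2.04 FPKM or less and Csf1r at 2.03 to 12.8 FPKM. In anti-β8 pool 3, with 833 FPKM of H2-Ab1, 5 of the 17 were listed at 0, among them C1qb, Adgre1 and Fcgr1, while Lyz2 stood at 334, Cd68 at 21.9, C1qa at 11.9, C1qc at 11.5 and Csf1r at 8.86 FPKM. That library had the fewest genes at 1 FPKM or more, 9283, so a listed 0 does not show that a marker was absent. No marker of any list was at 0 in all 9 pools.

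The 12 dendritic cell markers summed to 74.8 to 130 FPKM in anti-β8, 65.7 to 190 FPKM in β8 isotype and 62.6 to 81.4 FPKM in Mock, with 6 to 10, 9 to 10 and 9 to 11 of 12 at 1 FPKM or more. The 4 highest were Cd209a, Ccl17, Zbtb46 and Ccl22, with means over the 9 pools of 27.7, 17.7, 16.2 and 10.1 FPKM. Itgax, which encodes CD11c, did not exceed 4.74 FPKM. The 13 B cell markers summed to 121 to 205 FPKM in anti-β8, 40.7 to 127 FPKM in β8 isotype and 24.7 to 62.6 FPKM in Mock, with 6 to 11, 8 to 11 and 4 to 9 of 13 at 1 FPKM or more. Cd79a and Cd79b, the signalling chains of the B cell receptor, led the list with means of 42.4 and 20.6 FPKM, followed by Blk at 5.86 FPKM. Of the 11 B cell markers tested, 8 had an unadjusted p under 0.05 in the higher direction for anti-β8 against Mock, where the share of all genes was 6.09%, and 0 passed the threshold in limma.

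The 5 co-stimulatory ligands and receptors of antigen-presenting cells that were listed summed to 53.3 to 60.1 FPKM in anti-β8, 63.5 to 89.6 FPKM in β8 isotype and 57.4 to 65.9 FPKM in Mock. They were led by Cd86, Pdcd1lg2, Cd80 and Cd40, with means of 20.9, 15.6, 14.2 and 7.60 FPKM. Cells outside the antigen-presenting lineages were also followed. The 5 CD8 and natural killer cell markers, led by Cd8b1 at a mean of 27.4 FPKM, summed to 36.8 to 58.1 FPKM in anti-β8, 24.4 to 44.1 FPKM in β8 isotype and 19.9 to 29.3 FPKM in Mock. The 7 fibroblast markers, led by Dcn and Col3a1, summed to 18.7 to 65.9 FPKM in anti-β8, 48.5 to 153 FPKM in β8 isotype and 7.31 to 9.91 FPKM in Mock. The 7 epithelial and tumour markers, led by Krt18 and Epcam, summed to 30.8 to 142 FPKM in anti-β8, 67.2 to 103 FPKM in β8 isotype and 44.6 to 61.6 FPKM in Mock.

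**Figure D3:**
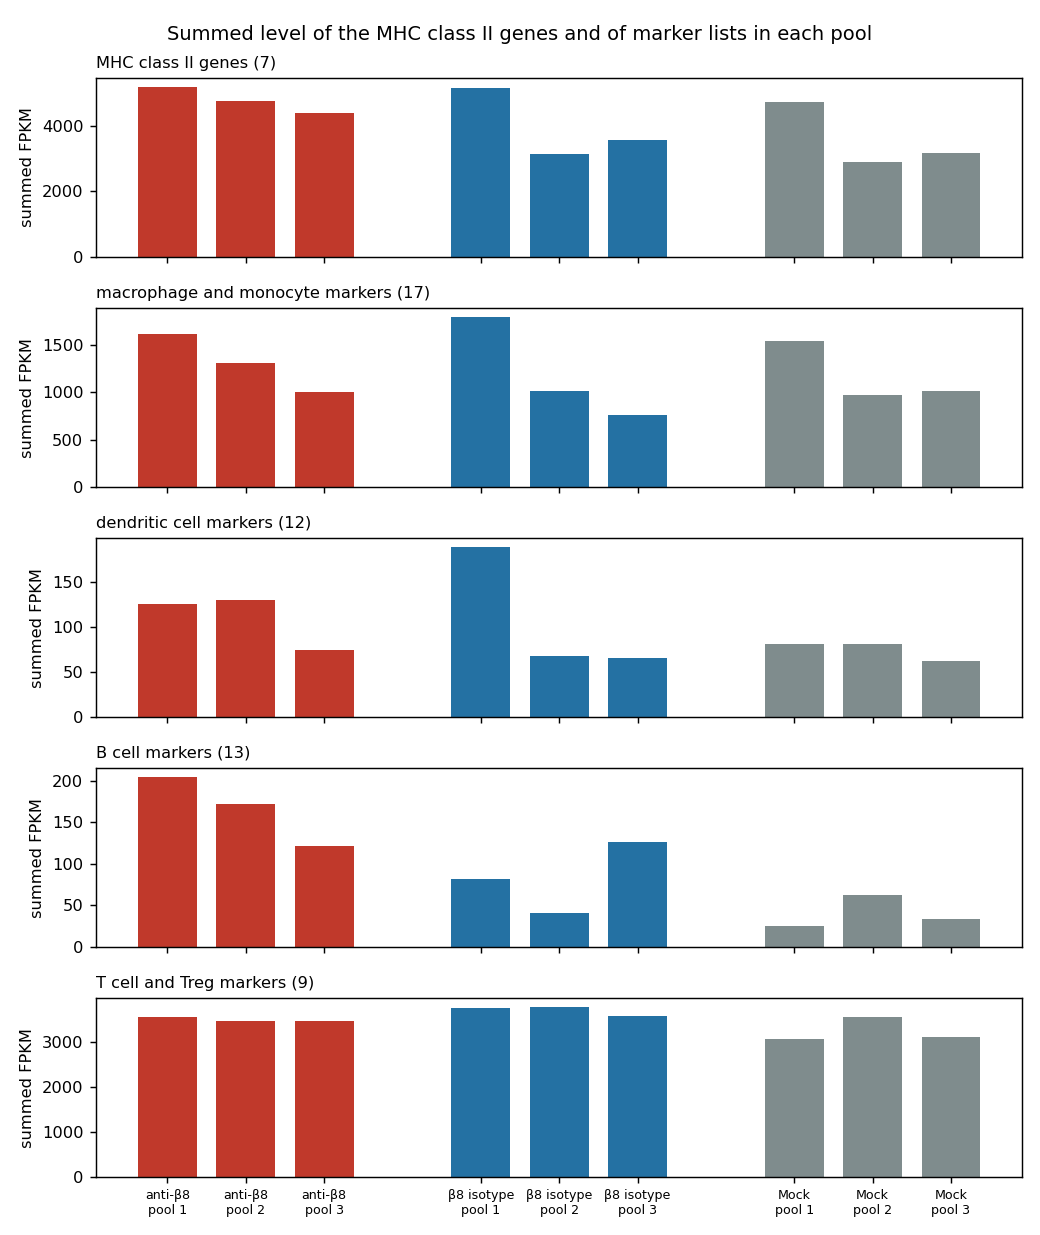
Summed unnormalized FPKM of the 7 MHC class II genes and of the marker lists in each of the 9 pools, with 1 bar per pool and its own vertical scale from 0 in each panel. The class II and macrophage sums are both high in pool 1 of each group, the B cell sum is 121 to 205 FPKM in the anti-β8 pools and reaches 127 FPKM in β8 isotype pool 3, and the T cell sum stays between 3072 and 3787 FPKM.

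The class II sum was set against the marker sums pool by pool. The summed class II level was 3.19 to 4.38 times the macrophage and monocyte sum in anti-β8, 2.86 to 4.63 times in β8 isotype and 2.96 to 3.13 times in Mock. Within Mock the class II sum itself spanned 1.65-fold between pools, and this ratio spanned 1.06-fold. Within β8 isotype the class II sum spanned 1.64-fold and the ratio 1.62-fold, so the narrow ratio was not seen there. In anti-β8 the class II sum spanned 1.18-fold and the ratio 1.37-fold. Over all 9 pools the class II sum spanned 1.80-fold, and its ratio spanned 1.62-fold for macrophage and monocyte markers, 1.91-fold for T cell markers, 2.16-fold for dendritic cell markers and 7.57-fold for B cell markers. The marker sums themselves spanned 2.35-fold, 1.23-fold, 3.03-fold and 8.29-fold in the same order, so the ratio spans also reflect how variable each marker sum was.

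Mock pool 1 had the lowest B cell sum of the 9 pools, 24.7 FPKM. In that pool 9 of 13 B cell markers were under 1 FPKM, the B cell surface gene Ms4a1 was listed at 0 and Cd79a was at 6.61 FPKM. The same pool had 1093 FPKM of H2-Ab1, the highest of the Mock pools, and 612 FPKM of H2-Eb1. Its macrophage and monocyte sum, 1547 FPKM, was the highest of the Mock pools, with Tyrobp at 367, Lyz2 at 422 and Csf1r at 12.7 FPKM, although Ctss, at 353 FPKM, and C1qc, at 2.31 FPKM, were higher in Mock pool 2 and Mock pool 3, at 361 and 3.11 FPKM. Its dendritic cell markers summed to 81.4 FPKM, against 81.3 FPKM in Mock pool 2, where H2-Ab1 was 630.4 FPKM. β8 isotype pool 3 had the lowest macrophage sum of all pools, 766 FPKM, with 127 FPKM of B cell markers and 696 FPKM of H2-Ab1. The part of macrophage, dendritic and B cell RNA in the class II levels was not tested.

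The order of pools within each group was shared by most members. In normalized FPKM, 4 of 7 members were highest in pool 1 of all 3 groups. The exceptions were all in anti-β8, where H2-Aa was highest in pool 2, H2-DMa in pool 3 and Cd74 had the same value in pools 1 and 3. In unnormalized FPKM H2-DMb1 in anti-β8 was highest in pool 2. The same pools as for H2-Ab1 were the highest for 497 of 12555 genes tested (3.96%). Among these genes were 9 of 15 macrophage and monocyte markers tested, 1 of 11 dendritic cell markers, 0 of 11 B cell markers and 0 of 9 T cell and Treg markers. The pool numbers come from the labels. Over all genes tested, deviations from group means correlated at -0.040 to 0.046 between same-numbered pools and at -0.045 to 0.071 between the others. A factor shared by same-numbered pools that acts on few genes was not tested.

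Likeness to the members' mean profile was measured as the root mean square distance between standardized log2 profiles over the 9 libraries, where 0 is identical and 1.41 is the value for unrelated profiles. The 10 nearest of 12548 other genes were Fcer1g (distance 0.447), Ifi204 (0.456), Il17ra (0.506), Gast (0.540), Tnfrsf1a (0.545), Abcc4 (0.547), Psap (0.558), Tinf2 (0.562), Clic4 (0.579) and Snord55 (0.582). Of these only Fcer1g was on a marker list, and Ifi204, Gast and Abcc4 had means under 2 FPKM. Among all 12548 genes, with none left out, Lgmn, Csf1r and Lyz2 ranked 12, 16 and 18. The median distance was 0.854 for the macrophage and monocyte markers, 1.14 for the dendritic cell markers, 1.21 for the B cell markers and 1.41 for all genes.

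Among the members themselves H2-Aa and H2-Ab1, the chains of I-A, were nearest to each other at 0.416, followed by H2-Ab1 and H2-Eb1 at 0.501. H2-DMa and H2-DMb1, also partners in a dimer, were 1.28 apart. Ciita was 1.04 from H2-Ab1, 1.26 from H2-Aa and 0.665 from H2-Eb1. These distances describe 9 libraries that share 3 groups and the low gene detection of anti-β8 pools 2 and 3.

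**Figure D4:**
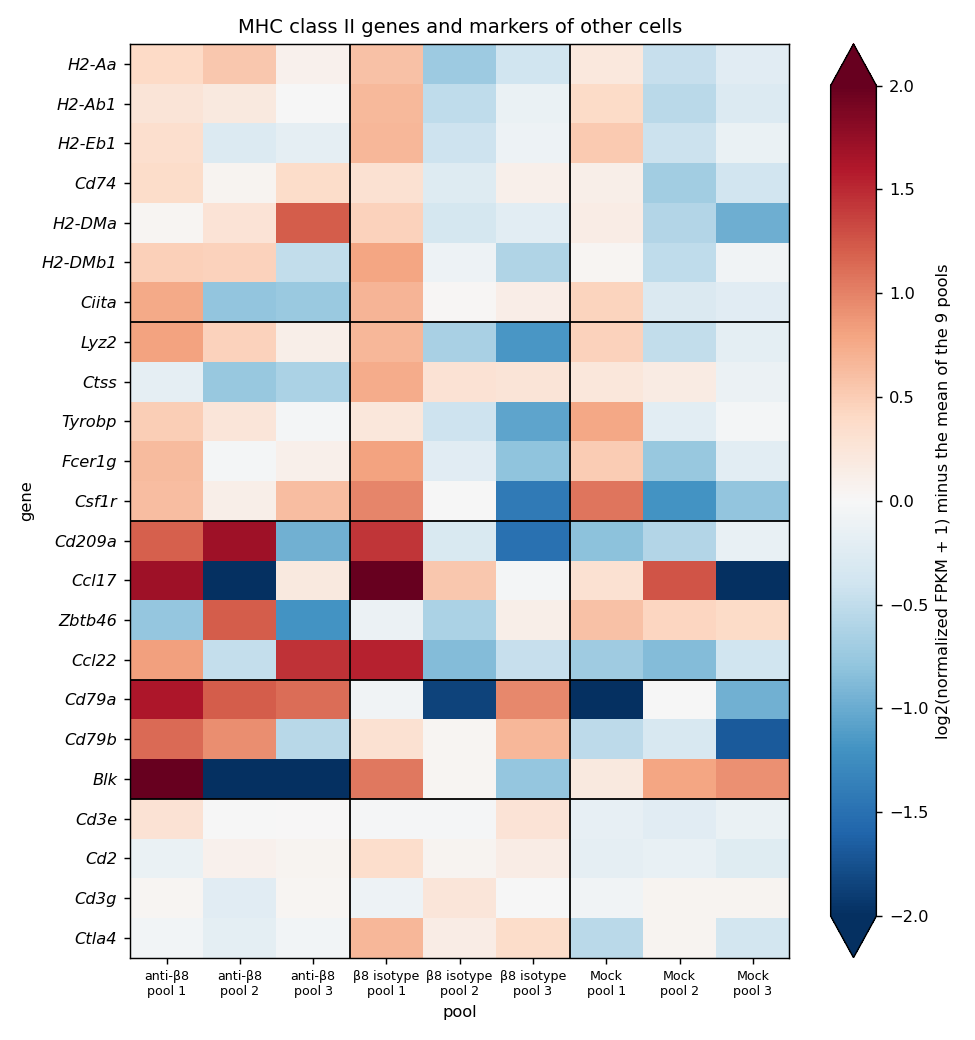
Colours give log2(normalized FPKM + 1) minus the mean of the 9 pools, with red above and blue below that mean, for the MHC class II genes (top), macrophage and monocyte, dendritic cell, B cell and T cell markers, in columns by pool from anti-β8 through β8 isotype to Mock; colours end at 2 log2 units. Most class II genes and Lyz2, Fcer1g and Csf1r are red in pool 1 of β8 isotype and Mock, whereas Cd79a is at its bluest in Mock pool 1.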

How the data were processed

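Full-length cDNA was made with SMART-Seq v4 and libraries with Nextera XT, per the labels' protocols, without molecular identifiers or strand marking. The authors deposited FPKM, per the sheet names, once unnormalized (53251 genes) and once normalized between libraries (16409 genes). Tools in the submitters' processing notes are STAR 2.6.1a, RSEM 1.3.1, Cufflinks, Picard and Trim Galore 0.5.0, on GRCm38, with no role given. Sorted values of the normalized libraries differ by at most 0.0907% among the top 1000, as after quantile normalization. Read totals are not given, and 1 shifted row was left out.

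From the normalized FPKM, genes at 1 or more in at least 3 of 9 libraries were kept, and log2(FPKM + 1) was fitted by group in limma 3.58.1 (R 4.3.3), with trend and robust moderation, two-sided tests and Benjamini-Hochberg adjustment over 12555 genes. A pseudocount of 1 understates changes of low genes. Each p-value reflects variation among pools. The fit was tested on simulated data. Count models were not used, since FPKM are length-scaled.

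All 7 members are named with every value. Pathway lists are shown by the 4 smallest p per comparison and marker lists by their 4 highest means, except items not reported here. The members and lists were chosen with earlier results of these data known. Same-numbered pools correlated at -0.040 to 0.046 in their deviations from group means, so no block was used.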

Additional observations from a re-analysis of the deposited data

How the results depend on the processing

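No class II gene passed the threshold under any of the alternatives run, which were the unnormalized table, a pseudocount of 0.1, other filters, only the 6 libraries compared, a replicate block, no trend or robust moderation, array weights, leaving out each pool, and leaving out anti-β8 pools 2 and 3 together. Over these, the adjusted p of Cd74 for anti-β8 against Mock ran from 0.0983 to 0.639 and its log2 difference from 0.40 to 0.81, and those of H2-DMa ran from 0.128 to 0.786 and from 0.51 to 1.29. The filter at 5 FPKM removed Ciita.

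Over all genes tested the pool numbers did not pair the libraries, and 4 of 9 libraries correlated best with their own number. With the replicate block the count of all genes called was 2 for anti-β8 against β8 isotype, 15 for anti-β8 against Mock and 2 for β8 isotype against Mock, where the values without it were 8, 23 and 1. For anti-β8 against β8 isotype the count was 2 on the unnormalized table and 3 with a pseudocount of 0.1, with the 6 libraries or without trend and robust settings. For anti-β8 against Mock it was 15 without the filter, 13 without trend and robust settings and 14 with array weights. For β8 isotype against Mock it was 29 with the 6 libraries, 0 without trend and robust settings (634 at an unadjusted p under 0.05), 111 with array weights and 30 without anti-β8 pools 2 and 3. Leaving out a pool gave 2 to 142, 9 to 323 and 1 to 2 genes in these comparisons, and the highest values of the first 2 came without anti-β8 pool 1.

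Directions of small differences changed. For β8 isotype against Mock, the unnormalized table gave -0.0041 for H2-Ab1 and -0.021 for H2-Eb1, and array weights gave 0.0020 for H2-Aa. Array weights gave 0.090 for H2-Eb1 against β8 isotype, and 0.19 for H2-Eb1 and 0.25 for Ciita against Mock, in anti-β8. Without anti-β8 pools 2 and 3, H2-Eb1 and Ciita gave 0.29 and 0.48 against β8 isotype and 0.35 and 0.78 against Mock, so the values below 0 for Ciita rest on the pools where it is listed at 0. Leaving out a pool gave -0.40 to 0.26 for H2-Aa, -0.18 to 0.40 for H2-Ab1, -0.25 to 0.33 for H2-Eb1 and -0.17 to 0.52 for H2-DMb1 in β8 isotype against Mock. It gave -0.11 to 0.47 for H2-Ab1, -0.19 to 0.50 for H2-DMb1 and -0.32 to 0.22 for H2-Eb1 in anti-β8 against β8 isotype, and -0.24 to 0.24 for H2-Eb1 and -0.74 to 0.036 for Ciita in anti-β8 against Mock. The median difference of the members under these omissions was 0.059 to 0.47, 0.16 to 0.55 and -0.17 to 0.40 in anti-β8 against β8 isotype, anti-β8 against Mock and β8 isotype against Mock, and it was -0.17 without β8 isotype pool 1. The cause of these changes was not tested.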
